A study of Oryza sativa with 9 samples.

Results

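CIGR1 is a rice gene of the GRAS family on chromosome 7 (LOC4343521), and its name stands for chitin-inducible gibberellin-responsive. It was read by 1 of the 57194 probe sets tested, and it is 1 of 17905 genes that have a probe set with a single listed gene. CIGR1 was chosen by its measured levels in the OE, RNAi and WT groups of these arrays, so its levels and differences are given as a description with no test. The same naming rule took its relative CIGR2 and 3 genes of the gibberellin receptor pathway, SLR1, GID1 and GID2, which makes 5 genes with 6 probe sets.

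Leaf RNA of rice seedlings grown for 21 days in culture solution without stress was measured on 9 Affymetrix arrays. The groups were OsHMGB707 overexpression (OE, under a promoter of cauliflower mosaic virus), OsHMGB707 RNA interference (RNAi, under a ubiquitin promoter) and wild type (WT), with 3 arrays each, all of the cultivar Zhonghua11. The targeted gene, OsHMGB707, codes for a DNA-binding chromatin protein of the high mobility group. Each array held RNA of pooled seedlings. The labels name no line, so the arrays of a transgenic group may come from 1 transformation event, and WT carried no vector, so that construct, insertion and genotype cannot be told apart. For its stress treatments the study germinated transgenic seeds with hygromycin and WT seeds without it. Whether the seedlings of these arrays were raised in that way is not stated.

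Gibberellins are growth hormones. They bind the receptor GID1, which then holds the DELLA repressor SLR1 for the F-box protein GID2, and the loss of SLR1 releases growth and hydrolase genes. SLR1 itself belongs to the GRAS family, as do CIGR1 and CIGR2, and both CIGR genes are known in rice for responding to gibberellin and to fragments of chitin, a component of fungal cell walls.

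Values are deposited log2 levels, so a difference of 1 is a doubling, and levels are compared between arrays for the same probe set only. A difference was called at a limma adjusted p under 0.05 over all tested probe sets. Array medians lay between 5.89 and 5.94. The study places OsHMGB707 on chromosome 4, and the high mobility group gene read there is LOC4336676, although neither the labels nor the annotation pair that locus with the name. Its first probe set read 12.25, 12.28 and 12.37 in OE and 10.31, 10.43 and 10.03 in RNAi, against 12.39, 12.38 and 12.38 in WT. The RNAi arrays thus read lower (-2.13, SE 0.09, limma adjusted p = 3.85e-06), while the arrays labelled OE were not higher than WT (-0.09, SE 0.09, limma adjusted p = 0.703). Its second probe set was not called in any comparison. Whether either probe set reads the transcript of the overexpression construct is unknown here, so these values do not decide how much of it the OE plants made. Every statement on OE below therefore concerns the arrays labelled OE. The 14 probe sets of photosynthesis genes, whose means ran from 3.11 to 14.2, averaged 11.44 to 11.56 in OE and 11.38 to 11.48 in RNAi, against 11.42 to 11.53 in WT. The meristem list averaged 5.69 to 5.73 in OE and 5.71 to 5.78 in RNAi, against 5.62 to 5.66 in WT. The root list averaged 5.53 to 5.61 in OE and 5.41 to 5.49 in RNAi, against 5.50 to 5.57 in WT. The anther list averaged 4.52 to 4.59 in OE and 4.48 to 4.60 in RNAi, against 4.40 to 4.50 in WT, and the endosperm list 5.9 to 5.96 in OE and 5.84 to 5.95 in RNAi, against 5.83 to 5.96 in WT. No member of these lists was called in any comparison. Of all tested probe sets 2.94%, 0.479% and 6.16% were called in OE minus WT, RNAi minus WT and OE minus RNAi. The part of these lists in the results was not tested.

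CIGR1 read 11.08, 11.21 and 11.08 in OE and 10.23, 10.12 and 10.17 in RNAi, against 10.53, 10.57 and 10.77 in WT. The groups did not overlap, with OE highest, WT between and RNAi lowest. Means were 11.12 ± 0.08 in OE and 10.17 ± 0.06 in RNAi, against 10.62 ± 0.13 in WT (SD, n = 3 each). CIGR1 was thus 0.50 higher in OE than in WT, which is 1.42-fold, and its RNAi minus WT difference was -0.45, which is 1.37-fold lower. The OE minus RNAi difference was 0.95 (SE 0.08 for each difference), or 1.93-fold. Both differences from WT were under the 2-fold threshold of the study's methods. Of all tested probe sets, 962 (1.68%) likewise had OE and RNAi on opposite sides of WT with no overlap, 590 of them with OE above and RNAi below.

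**Figure D1:**
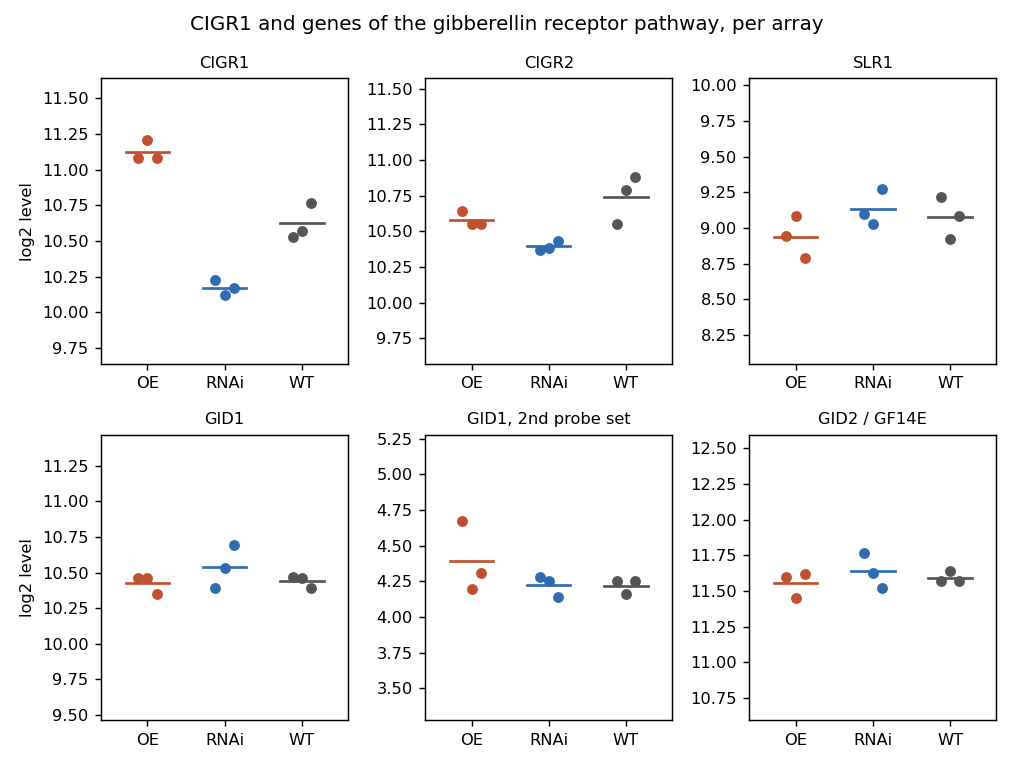
Log2 level (vertical axis, a span of 2 in each panel) on each array of OE, RNAi and WT for the 6 probe sets of the 5 genes; points are arrays and bars are group means. CIGR1 alone of these panels has 3 groups in separate ranges with OE on top, while CIGR2 is lowest in RNAi and the SLR1, GID1 and GID2 panels overlap.

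CIGR2, the closest relative of CIGR1 by name and also on chromosome 7 (LOC4343735), did not show that order. It read 10.64, 10.55 and 10.55 in OE and 10.37, 10.38 and 10.43 in RNAi, against 10.55, 10.79 and 10.88 in WT. OE overlapped WT, and RNAi lay below both. The OE minus WT difference was -0.16 (95% interval -0.35 to 0.03, limma adjusted p = 0.392). The RNAi minus WT difference was -0.35 (-0.54 to -0.16), which was not called after adjustment (limma adjusted p = 0.14). It was called without WT replicate 1 (-0.45, adjusted p = 0.044) and with array weights (-0.39, adjusted p = 0.0403).

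SLR1, the DELLA repressor (LOC4333860 on chromosome 3), read 8.94, 9.08 and 8.79 in OE and 9.10, 9.03 and 9.27 in RNAi, against 9.22, 8.92 and 9.08 in WT. All 3 groups overlapped. Its differences were -0.14 for OE minus WT (-0.38 to 0.10, limma adjusted p = 0.555) and 0.06 for RNAi minus WT (-0.17 to 0.30, limma adjusted p = 0.855).

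GID1, the gibberellin receptor (LOC4338764 on chromosome 5), read 10.46, 10.46 and 10.35 in OE and 10.39, 10.53 and 10.69 in RNAi, against 10.47, 10.46 and 10.39 in WT. The groups overlapped, with differences of -0.02 for OE minus WT (-0.20 to 0.16, limma adjusted p = 0.941) and 0.10 for RNAi minus WT (-0.08 to 0.28, limma adjusted p = 0.67). Its other probe set read 4.14 to 4.67 over all arrays and was not called either.

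The probe set listed for GID2, the F-box protein that marks SLR1 for breakdown, belongs to LOC4329775 on chromosome 2. That entry also carries the name GF14E, a 14-3-3 protein gene, and another entry named GID2 lies within its span, so the probe set cannot be assigned to GID2 alone. It read 11.60, 11.45 and 11.62 in OE and 11.77, 11.63 and 11.52 in RNAi, against 11.57, 11.64 and 11.57 in WT. The groups overlapped, with differences of -0.04 for OE minus WT (-0.22 to 0.14) and 0.05 for RNAi minus WT (-0.14 to 0.23).

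Around these genes, a list of gibberellin signalling, synthesis, inactivation and response genes and of GRAS family members held 38 probe sets of 32 genes without CIGR1. In OE minus WT 1 of the 38 was called (2.63%), beside 2.94% of all probe sets tested. In RNAi minus WT none was called by limma, beside 0.479% of all probe sets, and 6 of the 38 (15.8%) had an unadjusted p under 0.05, beside 12.5% of all probe sets. In OE minus RNAi 4 were called (10.5%), 3 higher and 1 lower, beside 6.16% of all probe sets. Of these 4, LIP9 and SK1 share only a name with the genes intended, and without such matches 2 of 32 probe sets (6.25%) were called. The median differences over the 38 were -0.02, 0.01 and -0.01 for OE minus WT, RNAi minus WT and OE minus RNAi, against 0.02, 0.00 and 0.00 over all tested probe sets.

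**Figure D2:**
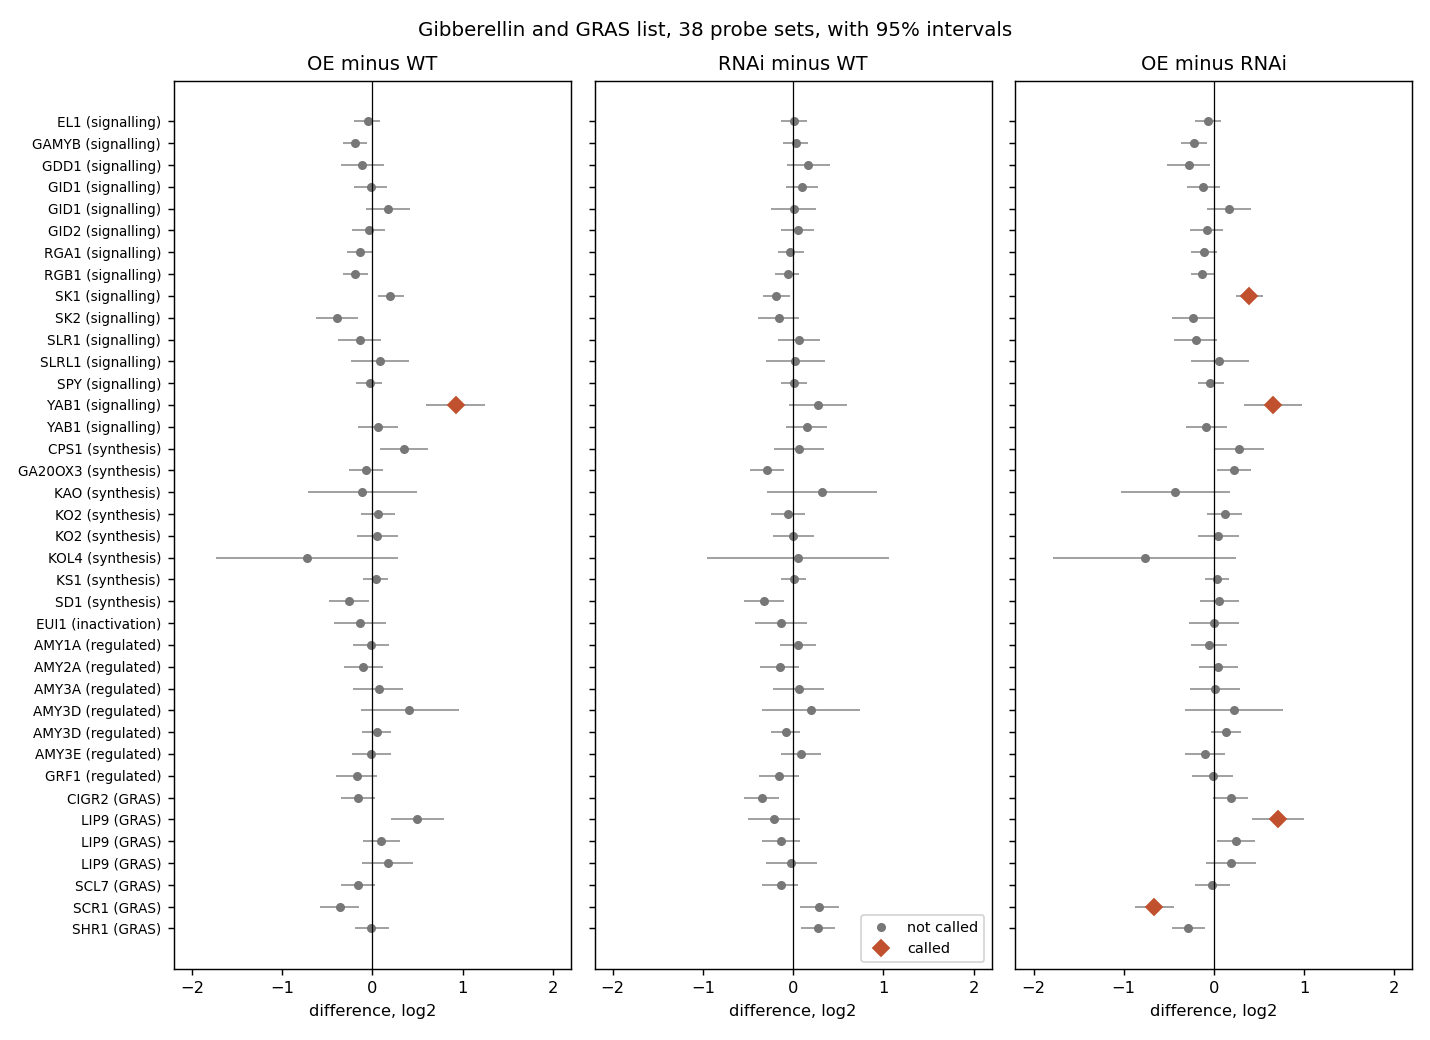
Difference on the log2 scale (horizontal axis) with its 95% interval for the 38 probe sets of the gibberellin and GRAS list in OE minus WT, RNAi minus WT and OE minus RNAi; orange diamonds were called and grey points were not. YAB1 at 0.93 is the 1 call against WT, and 4 probe sets were called in OE minus RNAi.

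Among the signalling genes, YAB1 was the 1 called against WT. YAB1 encodes a YABBY transcription factor known in rice for feedback control of gibberellin synthesis. It read 9.35, 9.81 and 9.28 in OE and 8.81, 8.82 and 8.87 in RNAi, against 8.80, 8.51 and 8.36 in WT. Every OE array stood above all RNAi and WT arrays. It was 0.93 higher in OE than in WT (SE 0.15, limma adjusted p = 0.0106) and 0.65 higher in OE than in RNAi (SE 0.15, limma adjusted p = 0.0289), and its RNAi minus WT difference was 0.27 (limma adjusted p = 0.477). The OE minus WT call was lost without WT replicate 2 (adjusted p = 0.0542) or WT replicate 3 (0.0545) and with an unmoderated linear model (0.0748). The OE minus RNAi call was lost without WT replicate 2 (0.0504), OE replicate 1 (0.061), OE replicate 2 (0.0518) or RNAi replicate 1, 2 or 3 (0.0554, 0.0892 and 0.0608), with only those 2 groups fitted (0.0533) and with the unmoderated model (0.118). A second YAB1 probe set had an OE minus WT difference of 0.06 and was not called. It read only 3.54 to 3.93 over all arrays, below the lower quartile of every array (4.33 to 4.41).

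GAMYB, the transcription factor that turns on amylase genes under gibberellin, read 7.91 on all 3 OE arrays and 8.11, 8.12 and 8.16 in RNAi, against 8.06, 8.06 and 8.19 in WT. OE lay below both other groups, but its OE minus WT difference of -0.19 was not called (limma adjusted p = 0.141). The remaining signalling genes were SPY, a repressor of the pathway, EL1, a kinase that acts on SLR1, the DELLA-like SLRL1, the G-protein subunits RGA1 and RGB1, and the kinesin-like GDD1. Their differences from WT ran from -0.19 to 0.09 in OE and from -0.06 to 0.17 in RNAi, and none was called. SK1 and SK2, which only share a name with the signalling genes intended, differed from WT by 0.20 and -0.39 in OE and by -0.19 and -0.16 in RNAi, and SK1 was called in OE minus RNAi (0.39, limma adjusted p = 0.00866). The SK2 difference in OE was not called with all arrays (limma adjusted p = 0.0857), but was without RNAi replicate 3 (0.0377) and with array weights (0.0116).

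None of the 8 synthesis probe sets was called in any comparison. Over all tested probe sets 2.94% were called in OE minus WT, 0.479% in RNAi minus WT and 6.16% in OE minus RNAi. With 8 probe sets, no call is near these shares. SD1, the gibberellin oxidase of the semidwarf rice varieties, read 6.46, 6.72 and 6.35 in OE and 6.51, 6.51 and 6.33 in RNAi, against 6.82, 6.73 and 6.76 in WT. Both transgenic groups lay below WT, with differences of -0.26 in OE (limma adjusted p = 0.211) and -0.32 in RNAi (limma adjusted p = 0.225). GA20OX3, of the same enzyme family, differed from WT by -0.07 in OE and -0.29 in RNAi (limma adjusted p = 0.207 for RNAi). CPS1, which makes the first committed intermediate of gibberellin synthesis, read 7.28, 7.72 and 7.43 in OE and 6.97, 7.26 and 7.34 in RNAi, against 7.15, 7.13 and 7.10 in WT. OE lay above WT, with a difference of 0.35 that was not called (limma adjusted p = 0.179). The next enzymes KS1 and KO2 stayed within -0.06 and 0.06 of WT in both groups, and KAO differed by -0.11 in OE and 0.32 in RNAi. KOL4, a kaurene oxidase-like gene that shares the synonym KO1, differed by -0.72 in OE (limma adjusted p = 0.464) and 0.05 in RNAi.

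EUI1, which inactivates gibberellins, differed from WT by -0.14 in both OE and RNAi and was not called. Of the 7 probe sets of gibberellin-regulated genes, which were the alpha-amylases and the growth-regulating factor GRF1, none was called. With 7 probe sets, no call is near the shares of all probe sets, 2.94%, 0.479% and 6.16% in the 3 comparisons. The OE minus WT differences of the 7 ran from -0.17 for GRF1 to 0.41 for AMY3D (limma adjusted p = 0.434 for AMY3D).

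Within the GRAS family, SCR1 ran opposite to CIGR1. SCR1 encodes a relative of SCARECROW, a factor of tissue patterning known from Arabidopsis. It read 5.78, 5.68 and 5.56 in OE and 6.16, 6.51 and 6.32 in RNAi, against 6.04, 5.96 and 6.11 in WT. The groups did not overlap, with OE lowest and RNAi highest. OE was lower than RNAi by a called difference of -0.66 (SE 0.10, limma adjusted p = 0.00452), while the differences from WT were -0.36 in OE (limma adjusted p = 0.0851) and 0.29 in RNAi (limma adjusted p = 0.261). SHR1, a relative of the SHORT-ROOT factor, read 5.10, 5.05 and 5.07 in OE and 5.28, 5.51 and 5.29 in RNAi, against 5.10, 5.18 and 4.96 in WT. RNAi lay above both other groups, and its OE minus RNAi difference of -0.29 was not called (limma adjusted p = 0.0756). That difference was called with array weights (-0.35, adjusted p = 0.0299). LIP9, a dehydrin matched through its synonym Dip1, was 0.71 higher in OE than in RNAi (limma adjusted p = 0.0122), a call lost with an unmoderated linear model (0.0728). Its OE minus WT difference of 0.50 was not called (limma adjusted p = 0.0768). It was called with array weights (0.0307), with only the 2 groups fitted (0.0242) and without RNAi replicate 1 (0.0171). On the other LIP9 probe sets the OE minus RNAi differences were 0.24 and 0.19, neither called (limma adjusted p = 0.174 and 0.415). SCL7, another GRAS member, differed from WT by -0.16 in OE and -0.14 in RNAi.

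The response to chitin, also part of the name of CIGR1, was followed in a list of 30 probe sets of 23 genes. In OE minus WT 1 was called (3.33%, beside 2.94% of all tested), in RNAi minus WT 1 (3.33%, beside 0.479%) and in OE minus RNAi 4 (13.3%, beside 6.16%), all higher. OsWRKY71, a transcription factor induced by elicitors and known to repress gibberellin-induced amylase in rice grains, accounted for both of its probe sets in OE minus RNAi. The first read 12.41, 12.42 and 12.23 in OE and 11.52, 11.51 and 11.59 in RNAi, against 11.80, 11.89 and 12.12 in WT. The groups did not overlap and kept the order of CIGR1. It was 0.41 higher in OE than in WT (SE 0.09, limma adjusted p = 0.046), its RNAi minus WT difference was -0.40 (limma adjusted p = 0.119), and OE minus RNAi was 0.81 (limma adjusted p = 0.00114). The call against WT was lost without WT replicate 1 or 2 (adjusted p = 0.132 and 0.164), OE replicate 1 or 2 (0.149 and 0.123) or RNAi replicate 1, 2 or 3 (0.0556, 0.0771 and 0.0513), with arrays centred on their medians (0.0598), with only the 2 groups fitted (0.0795) and with an unmoderated linear model (0.119). The second probe set read 10.88, 10.82 and 10.58 in OE and 9.67, 9.77 and 9.90 in RNAi, against 10.14, 10.32 and 10.49 in WT, and was called in OE minus RNAi (0.98, limma adjusted p = 0.0011).

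BIMK1, a mitogen-activated protein kinase of defence and stress signalling also listed as MPK3, read 10.97, 10.97 and 10.71 in OE and 10.17, 10.07 and 10.11 in RNAi, against 10.58, 10.72 and 10.98 in WT. RNAi lay below both other groups, and OE overlapped WT. It was lower in RNAi than in WT (-0.64, SE 0.11, limma adjusted p = 0.0401), and OE minus RNAi was 0.77 (limma adjusted p = 0.0038). The call against WT was lost without WT replicate 2 or 3 (adjusted p = 0.134 and 0.135), OE replicate 1 or 2 (0.0787 and 0.0556) or RNAi replicate 1, 2 or 3 (0.0516, 0.147 and 0.101), with only the 2 groups fitted (0.0903) and with an unmoderated linear model (0.214).

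Cht10, a chitinase, read 8.27, 8.31 and 8.31 in OE and 7.87, 7.89 and 7.56 in RNAi, against 7.85, 8.20 and 8.07 in WT. OE lay above both other groups, and its OE minus RNAi difference was 0.52 (SE 0.11, limma adjusted p = 0.0224). That call was lost without OE replicate 1, 2 or 3 (adjusted p = 0.0703, 0.0577 and 0.0677) and with an unmoderated linear model (0.0904).

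The genes that sense chitin were not called. CEBIP, the receptor that binds chitin fragments, read 8.88, 8.98 and 8.68 in OE and 8.43, 8.74 and 8.94 in RNAi, against 9.16, 8.89 and 9.05 in WT, with overlapping groups. The name CERK1, that of the receptor kinase working with it, is carried by 2 loci with 3 probe sets, which stayed within -0.11 and 0.07 of WT in both groups. EL2, an elicitor-induced cell cycle inhibitor, had an OE minus RNAi difference of 0.38 (limma adjusted p = 0.087). Its other probe set had one of 0.27 with overlapping groups (limma adjusted p = 0.263). For the defence protein PBZ1 the difference was -0.32. The chitinase Cht1 had an OE minus WT difference of -0.80 (limma adjusted p = 0.256), and LYP4, a protein related to CEBIP, had an RNAi minus WT difference of 0.53 (limma adjusted p = 0.25). Neither of these differences was called with all 3 groups in the fit, while that of Cht1 was with only OE and WT fitted (adjusted p = 0.0285). The OE minus RNAi difference of Cht1 was -0.93 and not called (limma adjusted p = 0.136). It was called without RNAi replicate 1 (-1.36, adjusted p = 0.00837) and with array weights (-0.90, adjusted p = 0.0406).

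**Figure D3:**
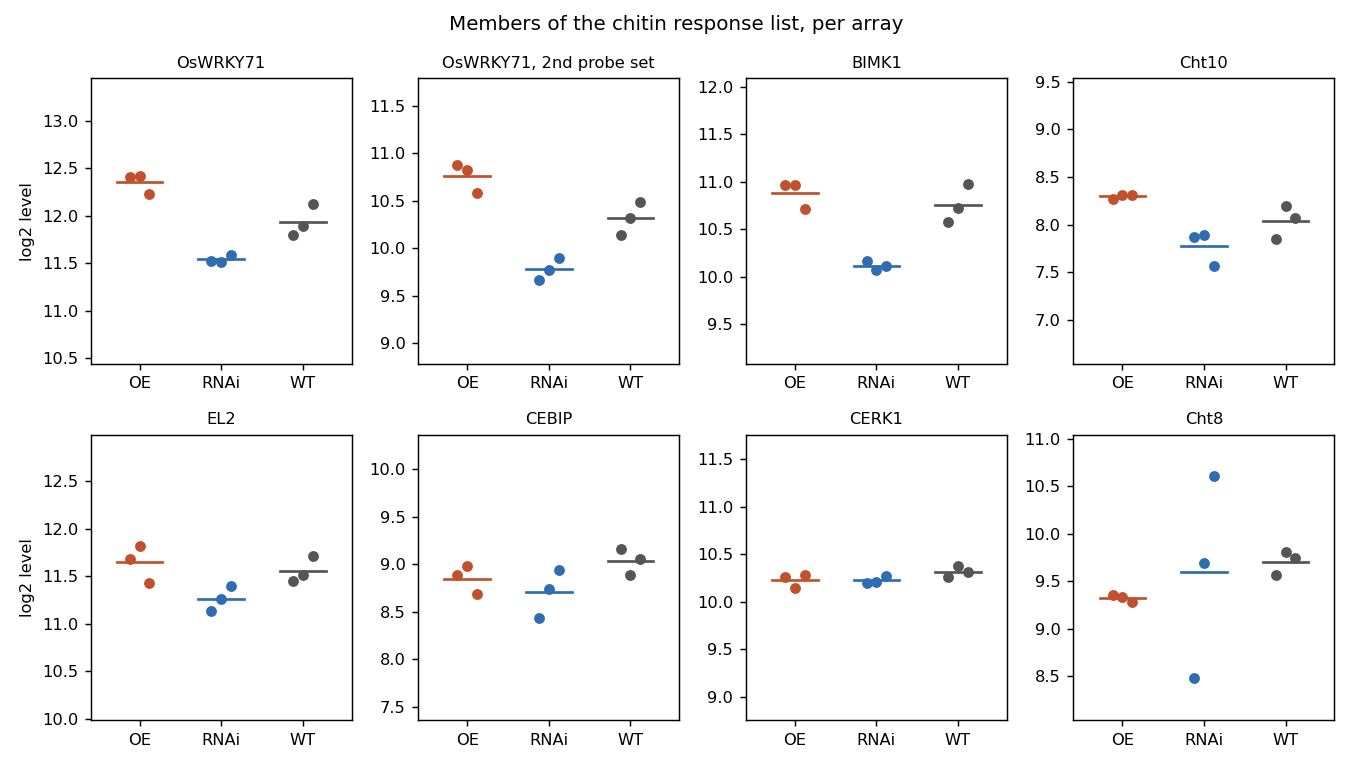
Log2 level (vertical axis, a span of 3 in each panel) on each array of OE, RNAi and WT for 8 probe sets of the chitin response list; points are arrays and bars are group means. Both OsWRKY71 panels keep the order OE, WT, RNAi of CIGR1, CERK1 stays level, and the RNAi arrays of Cht8 spread from 8.48 to 10.61.

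The named genes whose pattern was most like that of CIGR1 were found by Pearson r over the 9 arrays, among 369 probe sets of named genes with an SD over the arrays of at least 0.3. These arrays share the group differences for which CIGR1 was chosen, so r is a description. Of the 369, 26 had an r of at least 0.9 and 9 an r of at most -0.9. The 8 highest were DREB1G (0.99), OsWRKY71 (0.98 and 0.96 for its 2 probe sets), CDPK1 (0.98), OsRIBA2 (0.98), HSF07 (0.97), OsMac1 (0.97) and BGLU3 (0.96). Over deviations from the group means alone r was 0.85 for DREB1G, the highest of the 8, and 0.19 for OsMac1, the lowest. The ranking depended on the measure: 3 of these 8 were among the 8 highest by Spearman rho, 2 by deviations from the group means, and 5 to 8 when 1 array was left out.

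DREB1G, a transcription factor of the family that binds dehydration-responsive elements, read 7.53, 7.93 and 7.48 in OE and 5.56, 5.01 and 4.97 in RNAi, against 6.06, 5.81 and 6.52 in WT. The order was that of CIGR1, with differences from WT of 1.51 in OE and -0.95 in RNAi. CDPK1, a calcium-dependent protein kinase, read 10.82, 10.97 and 10.84 in OE and 9.76, 9.88 and 9.97 in RNAi, against 10.18, 10.23 and 10.40 in WT. Its groups were separate as well. HSF07, a heat shock factor, read 9.62, 9.59 and 9.74 in OE and 8.67, 8.64 and 8.61 in RNAi, against 9.0, 8.95 and 9.10 in WT.

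The 4 lowest were AtMAP70-1, named for a microtubule-associated protein of Arabidopsis (-0.97), the protein phosphatase gene OsPP2C33 (-0.93), the beta-tubulin gene TUB2 (-0.93) and the expansin gene EXPB6 (-0.93). OsPP2C33 read 6.18, 6.48 and 6.07 in OE and 8.01, 7.53 and 7.70 in RNAi, against 7.36, 7.08 and 6.93 in WT. Its groups were separate, with OE lowest. Of the gibberellin and GRAS list, SCR1 had the most opposed pattern (r = -0.92), while CIGR2 had an r of 0.48 and SLR1 one of -0.53.

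**Figure D4:**
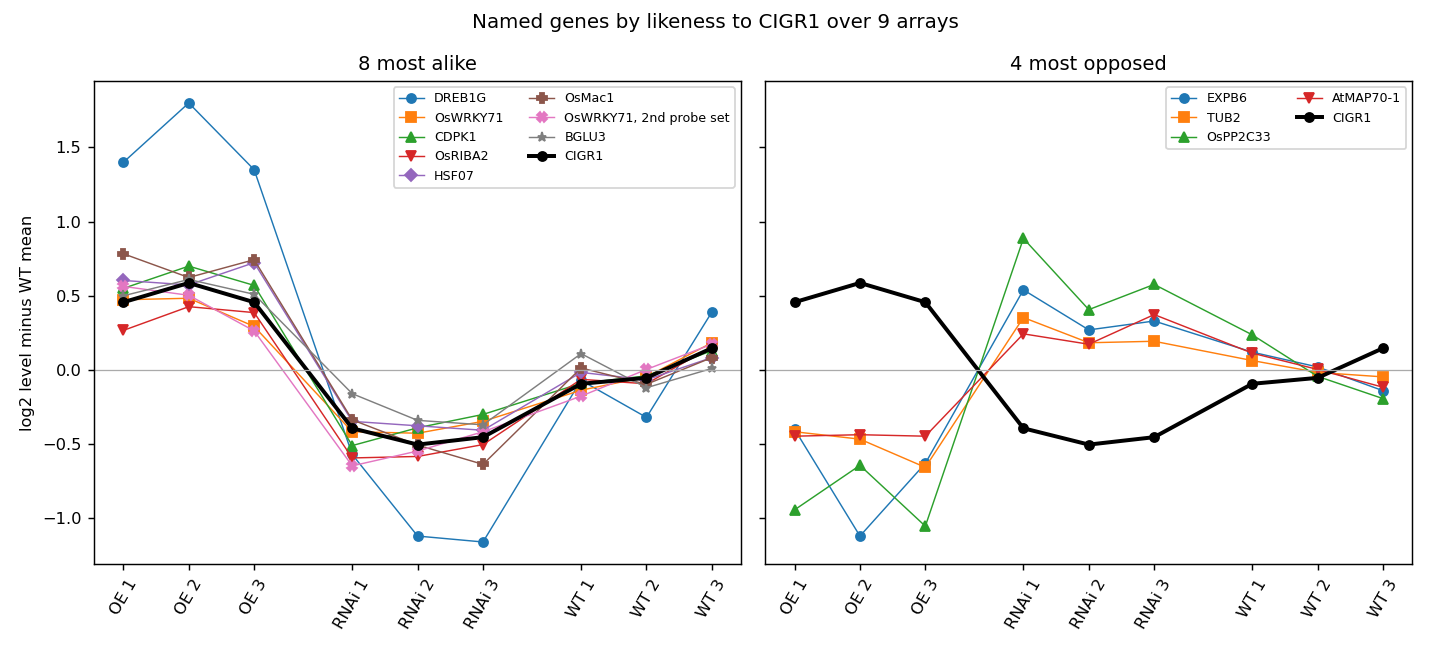
Log2 level minus the WT mean (vertical axis) on each of the 9 arrays for CIGR1 (black) and the named probe sets of highest (left) and lowest (right) Pearson r with it. DREB1G follows CIGR1 with differences from WT of 1.51 in OE and -0.95 in RNAi, against 0.50 and -0.45 for CIGR1.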

How the data were processed

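Total RNA of 3 samples per genotype was hybridised to Affymetrix arrays. The deposited log2 values were made by the authors with RMA (submitters' processing notes; version not given in the sources used here). They are already normalized, so depth does not apply, and 3 arrays per group limit the precision. Of 57381 features, 187 control and reporter features were left out. Probe sets were named through the platform annotation and the RefSeq gene table, and 22436 had 1 gene. Group means over all 9 arrays were fitted with limma 3.58.1 in R 4.3.3 (6 residual and 3.78 prior degrees of freedom), two-sided, with Benjamini-Hochberg adjustment over 57194 probe sets. The fit was tested on simulated data.

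The members and lists were chosen with earlier results of these data known. Named were the genes of the naming rule, list members (all of short lists, otherwise those called or of largest difference), the 8 highest and 4 lowest in likeness to CIGR1, and LOC4336676. For likeness a gene counted as named by symbol or synonym, since only 110 probe sets had a symbol other than a locus number. EL2, CEBIP, CERK1, PBZ1 and Cht8 were named after their values were seen. GAMYB, SPY, EL1, RGA1 and RGB1 were also named outside these rules. ACT1 was named because its OE and RNAi arrays lay on opposite sides of WT. The methods describe biological replicates without saying how they were separated, so p-values measure the spread between these samples. Alternatives covered normalization, filters, the variance model, array weights, a replicate block and leaving out each array.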

Additional observations from a re-analysis of the deposited data

Results flagged for a closer look

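In 6 probe sets of the naming rule, the gibberellin and GRAS list and the chitin list, all OE arrays lay on one side of WT and all RNAi arrays on the other. Over all tested probe sets 1.68% did so. In the gibberellin and GRAS list these were 2 of 38 and in the chitin list 3 of 30, where OsWRKY71 accounts for 2 of the 3. CIGR1 is in neither count. It was chosen by its levels in these groups, so its pattern is not set against the share of all probe sets. For CIGR1 the OE minus RNAi difference was 0.95, with 0.50 for OE minus WT and -0.45 for RNAi minus WT, and the difference was not tested. The 2 probe sets of OsWRKY71 had OE minus RNAi differences of 0.81 (limma adjusted p = 0.00114) and 0.98 (limma adjusted p = 0.0011). SCR1 had one of -0.66 (limma adjusted p = 0.00452). SK1, which only shares its name with a signalling gene, had one of 0.39 (limma adjusted p = 0.00866). The actin gene ACT1, which entered the chitin list through its synonym RAC1, had one of -0.25 and was not called (limma adjusted p = 0.0834).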

How the results depend on the processing

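Leaving out 1 array gave CIGR1 differences of 0.45 to 0.57 for OE minus WT, -0.50 to -0.38 for RNAi minus WT and 0.91 to 0.98 for OE minus RNAi. The called probe sets then numbered 527 to 1939, 118 to 512 and 1693 to 4141, against 1680, 274 and 3521 with all arrays, and those of the gibberellin and GRAS list 0 to 2, 0 to 1 and 3 to 4. The list count for OE minus WT was 0 without WT replicate 2 or 3, 2 without RNAi replicate 1 or 3, 2 with only the 2 groups compared, 0 with an unmoderated linear model and 3 with array weights. For RNAi minus WT it was 1 without WT replicate 1 and 1 with array weights, and for OE minus RNAi it was 2 without genes that share only a name, an alternative chosen after seeing the data. Over all probe sets the unmoderated model called 731, 69 and 1623, array weights 3929, 1269 and 6310, and fits of only the 2 groups compared 167 in RNAi minus WT and 1805 in OE minus RNAi. The cause was not tested.

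The labels do not say what arrays with the same replicate number share. Their deviations from the group means had r from -0.328 to 0.116, against -0.211 to 0.283 for arrays with different numbers. With 3 arrays per group this cannot decide whether equal numbers were handled together. With the replicate number as a block, 937, 209 and 2455 probe sets were called and the list counts were 1, 0 and 4. In this balanced design the block cannot alter a group difference, so the CIGR1 values of 0.50, -0.45 and 0.95 with it say nothing of stability. The block ended 2 named calls, OsWRKY71 in OE minus WT (adjusted p = 0.104) and BIMK1 in RNAi minus WT (0.105). Of 13 called differences among the genes named from the naming rule, the lists and LOC4336676, 7 kept their call in every alternative run, and none turned its direction. Genes named only by likeness to CIGR1, such as DREB1G, CDPK1, HSF07 and OsPP2C33, were left out of this count and of these alternatives.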

Other observations

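Most chitinases of the chitin list varied more between the RNAi arrays than between the OE or the WT arrays. A Cht8 probe set read 9.36, 9.34 and 9.28 in OE and 8.48, 9.69 and 10.61 in RNAi, against 9.57, 9.81 and 9.74 in WT. Cht1 read 9.34, 9.36 and 8.89 in OE and 9.27, 10.18 and 10.92 in RNAi, against 9.85 to 10.13 in WT. Of 13 chitinase probe sets of 10 genes, 3 of them for Cht8, 10 had a larger SD in RNAi than in both other groups, as did 43.2% of all tested probe sets. RNAi replicate 3 was the highest array for 9 of the 13 and for 17.2% of all. Over all probe sets the root mean square SD was 0.149 in OE and 0.179 in RNAi, against 0.127 in WT. This pattern was noticed after the values were seen and was not tested.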
